A study of Mus musculus with 11 samples.

Results

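The 10 genes Tlr1, Tlr2, Tlr3, Tlr4, Tlr6, Tlr7, Tlr8, Tlr9, Cd14 and Myd88 encode Toll-like receptors of the mouse, a co-receptor and an adaptor, and they were described across sorted bone marrow cells that the labels call stromal (BMMSCs). They were taken by gene name from 16576 genes listed in at least 1 of the 3 deposited tables. All 10 were listed in the age table, and Tlr2, Tlr3, Tlr4, Tlr6, Cd14 and Myd88 in the Sca1 and knockout tables as well. Every listed member passed the filter on low counts in its table. PolyA RNA was sequenced from 11 samples in 4 groups. The adult group held 3 wild-type samples sorted as PDGFRa+CD51+, whose titles read neg and a number without saying what neg refers to. The group labelled Sca1-negative held 2 wild-type postnatal samples sorted as PDGFRa+Sca1- (replicates 2 and 3). The Igf1r knockout group held 3 PDGFRa+Sca1+ samples whose titles call them Cre-positive, and only the series' design text gives their age, as perinatal. The last group, called perinatal, labelled Sca1-positive or control according to the table, held 3 wild-type PDGFRa+Sca1+ samples whose titles call them Cre-negative. The sample labels call the young cells postnatal and the design text perinatal. Age in days, sex, the Cre driver and whether a sample pooled animals are not stated in the labels, and Cre status ran together with the Igf1r deletion.

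Toll-like receptors are membrane proteins that recognise microbial molecules. Tlr1, Tlr2, Tlr4 and Tlr6 act at the cell surface, where Tlr2 pairs with Tlr1 or Tlr6 to bind bacterial lipopeptides and Tlr4 binds lipopolysaccharide together with Ly96, after Cd14 has handed the ligand over. Tlr3, Tlr7, Tlr8 and Tlr9 sit in endosomes and recognise nucleic acids. Every member of the family except Tlr3 can signal through Myd88, an adaptor that recruits Irak kinases and leads to activation of NF-kappaB, and the receptors of interleukin-1 use the same adaptor. Macrophages, monocytes and dendritic cells are the best known carriers of the family, and Tlr2 and Tlr4 have also been described on stromal cells of the marrow.

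Promoter sequences are shown for 5 genes, 3 of which were at or near 0 in perinatal cells (Tlr1, Tlr8 and Tlr9) and 2 of which were present in all libraries (Tlr2 and Myd88). Each is the 250 bases before the RefSeq transcription start on build GRCm38.p6, 5′ to 3′ on the strand of the gene. Windows were searched for 7 of the 10 members, and none was used for Tlr4, Tlr7 and Cd14. Capitals mark matches on either strand to GAGGAA, the core of the motif of the myeloid factor PU.1, to TATAAA or to GGGCGG.
Tlr1, chr5:64933559-64933808, minus strand: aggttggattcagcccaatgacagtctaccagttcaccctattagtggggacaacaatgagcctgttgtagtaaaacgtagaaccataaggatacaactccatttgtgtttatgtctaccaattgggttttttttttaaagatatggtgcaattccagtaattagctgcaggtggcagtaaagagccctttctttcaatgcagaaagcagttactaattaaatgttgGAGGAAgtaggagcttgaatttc
Tlr8, chrX:167264330-167264579, minus strand: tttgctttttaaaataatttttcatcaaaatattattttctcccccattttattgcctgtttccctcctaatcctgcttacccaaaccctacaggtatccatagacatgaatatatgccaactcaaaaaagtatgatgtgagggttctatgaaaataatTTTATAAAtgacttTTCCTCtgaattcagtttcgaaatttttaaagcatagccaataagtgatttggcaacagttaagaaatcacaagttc
Tlr9, chr9:106222348-106222597, plus strand: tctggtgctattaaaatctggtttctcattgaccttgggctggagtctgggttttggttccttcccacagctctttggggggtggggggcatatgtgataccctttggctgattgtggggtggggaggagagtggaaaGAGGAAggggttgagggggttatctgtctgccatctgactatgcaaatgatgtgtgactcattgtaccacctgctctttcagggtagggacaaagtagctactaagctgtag
Tlr2, chr3:83841609-83841858, minus strand: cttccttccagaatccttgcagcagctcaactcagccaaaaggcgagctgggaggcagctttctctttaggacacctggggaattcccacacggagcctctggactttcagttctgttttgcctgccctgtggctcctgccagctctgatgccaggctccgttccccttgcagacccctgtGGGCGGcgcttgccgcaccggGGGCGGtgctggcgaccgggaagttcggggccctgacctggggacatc
Myd88, chr9:119340019-119340268, minus strand: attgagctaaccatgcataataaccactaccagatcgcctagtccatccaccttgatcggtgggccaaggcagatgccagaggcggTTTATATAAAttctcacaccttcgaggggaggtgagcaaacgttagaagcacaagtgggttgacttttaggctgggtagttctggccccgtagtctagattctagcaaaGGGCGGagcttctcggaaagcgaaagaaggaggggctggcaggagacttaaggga

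The GAGGAA letters or their reverse complement occurred in the windows of Tlr1, Tlr8 and Tlr9, where the match began 23, 77 and 112 bases before the start. They did not occur in the windows of Tlr2, Tlr3, Tlr6 or Myd88, nor in that of a second RefSeq start of Tlr1. Of 32851 promoters of the same length, 23.3% held them. The GGGCGG letters occurred 2 times in the window of Tlr2 and 1 time in that of Myd88, and in 32.7% of all promoters. The TATAAA letters occurred 2 times each for Tlr8 and Myd88, as overlapping matches on opposite strands, and 3 times at 1 of the 2 starts of Tlr6, against 12.4% of all promoters with at least 1 match. The kappaB consensus was in none of the windows of the 7 members searched and in 0.14% of all promoters. The Tlr2 and Myd88 windows held 11 and 9 CG dinucleotides, and the Tlr1, Tlr8 and Tlr9 windows above held 1, 1 and 0. The second start of Tlr1 had 8, Tlr3 had 6 and the starts of Tlr6 had 4 and 6, where the median over all promoters was 6.

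The labels were checked on the deleted gene, the sort markers and lists of cell type markers. Total counts per library ran from 13412316 to 23782217. Igf1r, the deleted receptor gene, stood at 7.81, 4.25 and 3.49 CPM in knockout libraries 1, 2 and 3, against 31.1, 29.9 and 29.9 CPM in the controls, where CPM gives a count relative to the TMM-scaled library total. The difference of -2.55 on the log2 scale missed the threshold (adjusted p = 0.0816, edgeR quasi-likelihood test). Ly6a, the gene of Sca1, went against the labels, with 686 and 655 CPM in the libraries labelled Sca1-negative against 13.5 and 10.05 CPM in those labelled Sca1-positive. In the knockout table it was at 731, 687 and 1002 CPM in knockouts, against 448 CPM in control 1 and 13.1 and 9.75 CPM in controls 2 and 3, which are the same libraries as the labelled Sca1-positive ones. The age table has no row named Ly6a, and in it perinatal 2 and 3 are again these libraries, while perinatal 1 and control 1 are different libraries filed under 1 sample label. Pdgfra, the gene of the sorted receptor, was at 13.1 ± 1.07 CPM in adult cells, against 289.5 ± 29.7 CPM in perinatal cells (SD, 3 libraries each), and Itgav, the gene of CD51, at 262.8 ± 21.6 CPM, against 54.3 ± 2.53 CPM. Pdgfra thus went against the adult label and Itgav with it. Summed over a list of 10 macrophage and monocyte genes, adult libraries held 14952 to 15982 CPM and perinatal libraries 36.5 to 46.8 CPM, and all 10 genes rose in adult cells. The 9 stromal markers summed to 4261 to 6941 CPM in adult and 82060.5 to 115473 CPM in perinatal libraries. The adult libraries, labelled as a stromal sort, thus held a larger sum of macrophage than of stromal marker RNA. Neutrophil genes summed to 1.83 to 2.67 CPM in adult and 63.5 to 83.8 CPM in perinatal libraries, and 7 of 7 tested fell. Cartilage genes summed to 43.3 to 77.7 CPM in adult libraries, against 394.8 CPM in perinatal 1 and 5231 and 6606 CPM in perinatal 2 and 3, and osteoblast genes to 5.39 to 20.7 CPM, against 122, 1437 and 1277 CPM. All 4 genes of each list fell in adult cells. Endothelial genes summed to 16.6 to 22.4 CPM in adult libraries, against 44.4 to 96.3 CPM in perinatal ones, with 5 of 6 called lower and 1 higher.

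The age comparison sets libraries labelled adult PDGFRa+CD51+ against libraries labelled PDGFRa+Sca1+ from young mice, so age and sort gate changed together. As given above, Pdgfra goes against the adult label. Ly6a, read in the other tables, goes against the label of perinatal 2 and 3, and that of perinatal 1 is not known. All 8 Toll-like receptor genes and Cd14 were higher in adult cells and Myd88 was lower. Thus 9 of 10 members were called higher and 1 lower, where 37.4% of the 13757 genes tested were called higher and 39.7% lower (edgeR quasi-likelihood test, adjusted p under 0.05). Tlr1, Tlr7, Tlr8 and Tlr9 had at most 4 counts in a perinatal library. These genes passed the low-count filter through the adult libraries alone, so they could only be called higher. Of all genes tested, 77.1% were called in either direction. No member's adult values overlapped its perinatal values, but the share of all genes without such overlap was not computed, so nothing is read from it. The median log2 fold change of the members was 4.25, also with the 2 genes at 0 in perinatal cells set at their bounds, and that of all genes tested was -0.06. Macrophage markers also rose in adult cells, while neutrophil, stromal, endothelial, cartilage and osteoblast markers mostly fell. The part of these markers in the differences was not tested. In sorted bulk RNA, fewer cells of a type and less RNA per cell cannot be told apart.

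**Figure D1:**
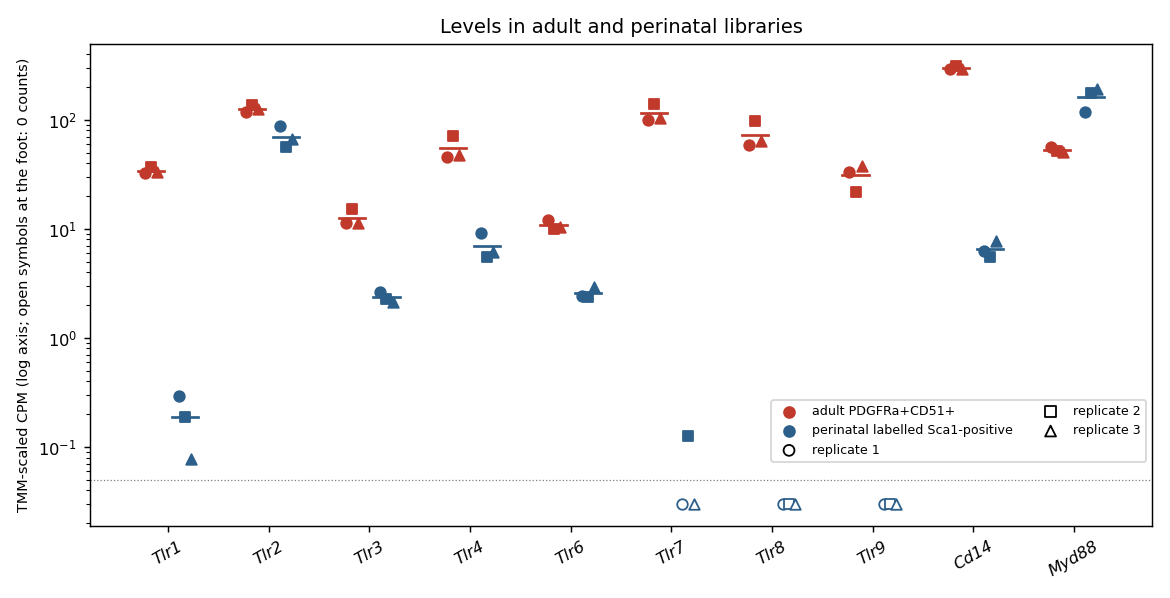
TMM-scaled CPM (log axis) of the 10 genes in 3 adult (red) and 3 perinatal (blue) libraries, with replicates by symbol, group means as lines (not drawn for Tlr7, Tlr8 and Tlr9 in perinatal cells) and libraries with 0 counts as open symbols at the foot. Tlr7, Tlr8 and Tlr9 have 2, 0 and 0 counts in all perinatal libraries together, and Myd88 is the 1 gene whose perinatal points lie above the adult ones.

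Among the lipopeptide receptors, Tlr2 (chromosome 3, 83836272 to 83841767, minus strand) was the one with a sizeable level at both ages. It stood at 118, 137 and 125 CPM in adult libraries 1, 2 and 3, against 87.1, 56.3 and 66.3 CPM in the perinatal libraries. The groups did not overlap, and perinatal 1 was the closest to the adult values. The log2 fold change was 0.85 (SE 0.18, adjusted p = 0.00288, edgeR quasi-likelihood test), a rise of 1.81-fold, and 0.55 (adjusted p = 0.0151) against perinatal 1 alone. Tlr1 (chromosome 5, 64924679 to 64933563, minus strand) had 610, 714 and 477 counts in adult libraries and 4, 3 and 1 counts in perinatal ones. Perinatal Tlr1 was thus near the floor of 3 counts per library, and the level was 34.3 ± 2.59 CPM in adult cells, against 0.187 ± 0.109 CPM in perinatal cells (SD, 3 libraries each). Its log2 fold change was 7.45 (SE 0.29, adjusted p = 1.08e-06, edgeR quasi-likelihood test). Tlr6, its neighbour on chromosome 5 (64952031 to 64960097, minus strand), was at 12.2, 9.96 and 10.4 CPM in adult libraries, against 2.44, 2.38 and 2.93 CPM in perinatal ones. Tlr6 rose by 2.07 on the log2 scale (SE 0.20, adjusted p = 5.22e-05, edgeR quasi-likelihood test). The mRNAs of Tlr1 and Tlr6 are alike, since 13.6% of the 50-base windows of Tlr1 and 12.3% of those of Tlr6 were found in the other gene, so reads from these stretches could be split between them. How such reads were counted is not given in the sources used here. No other pair of members shared a window of this length.

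The order of both Tlr2 partners differed between the adult and perinatal libraries on the per-length scale. In TPM as deposited by the authors, Tlr1 was at 24.7, 27.5 and 25.6 in adult libraries and Tlr6 at 9.25, 7.35 and 8.09, so Tlr1 was above Tlr6 in 3 of 3 adult libraries. In perinatal libraries Tlr1 was at 0.0985, 0.0926 and 0.0380 TPM and Tlr6 at 0.940, 1.07 and 1.33 TPM, so Tlr6 was above Tlr1 in 3 of 3. The perinatal Tlr1 values rest on 4, 3 and 1 counts. Tlr2 itself was at 71.0, 80.2 and 76.7 TPM in adult and at 29.9, 22.2 and 26.2 TPM in perinatal libraries, above both partners in every one.

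**Figure D2:**
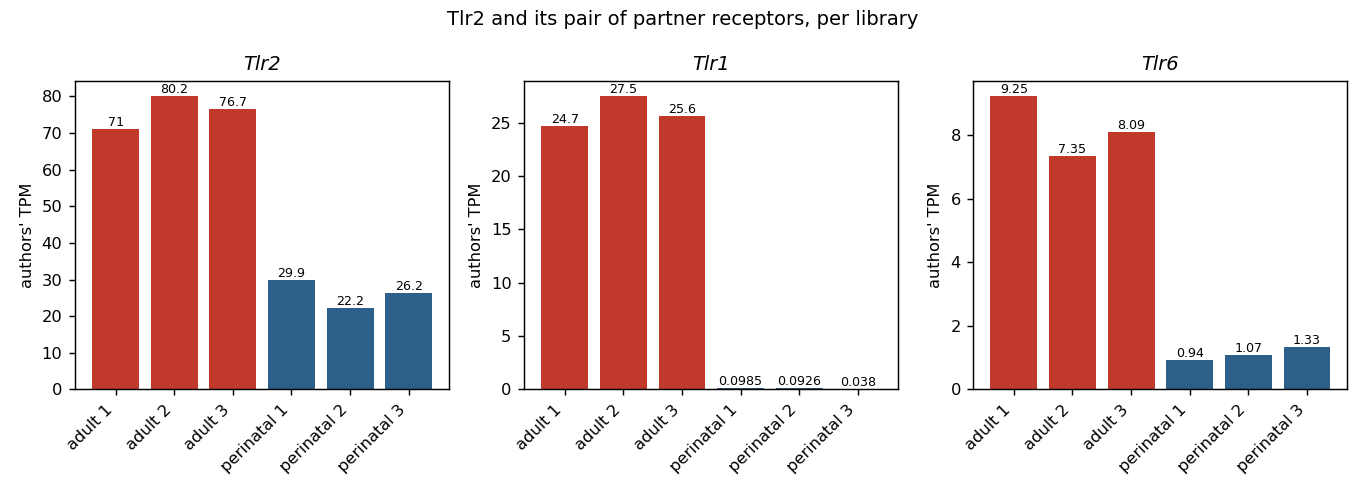
TPM as deposited by the authors for Tlr2, Tlr1 and Tlr6 in each adult (red) and perinatal (blue) library, with a separate axis per gene that starts at 0. Tlr1 exceeds Tlr6 in the adult libraries (24.7 to 27.5 against 7.35 to 9.25 TPM), and Tlr6 exceeds Tlr1 in the perinatal ones, where Tlr1 has 4, 3 and 1 counts.

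Of the genes of lipopolysaccharide recognition, Tlr4 and Cd14 rose in adult cells, Lbp fell and Ly96 did not pass the test. Tlr4 (chromosome 4, 66827584 to 66930284, plus strand) was at 45.9, 71.2 and 47.4 CPM in adult libraries, against 9.15, 5.58 and 6.08 CPM in perinatal ones. Adult 2 was the highest library and perinatal 1 the highest of its group. The log2 fold change was 2.98 (SE 0.27, adjusted p = 3.41e-05, edgeR quasi-likelihood test), or 7.91-fold. Cd14 (chromosome 18, 36725067 to 36726798, minus strand) was at 289, 312 and 295 CPM in adult libraries, against 6.27, 5.51 and 7.78 CPM in perinatal ones, and the libraries of each group lay close together. Cd14 rose 45.9-fold, with a log2 fold change of 5.52 (SE 0.18, adjusted p = 5.71e-07, edgeR quasi-likelihood test). Ly96, which encodes the MD-2 subunit that Tlr4 needs for ligand binding, was at 4.75 ± 0.909 CPM in adult cells, against 6.52 ± 1.20 CPM in perinatal cells (SD, 3 libraries each), and the difference missed the threshold (adjusted p = 0.119, edgeR quasi-likelihood test). Lbp, the gene of the serum protein that carries lipopolysaccharide to Cd14, fell to 4.04 ± 1.76 CPM in adult cells, against 60.0 ± 45.6 CPM in perinatal cells (adjusted p = 6.93e-04, edgeR quasi-likelihood test).

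Of the endosomal receptors, Tlr7, Tlr8 and Tlr9 were at or near 0 in perinatal cells. Tlr7 (chromosome X, 167304929 to 167330558, minus strand), a receptor of single-stranded RNA, had 1874, 2691 and 1518 counts in adult libraries, against 0, 2 and 0 counts in perinatal ones. From these counts the adult level was 2468-fold the perinatal one, with an exact 95% interval of 683 to 20383 that covers counting error only. Tlr8 (chromosome X, 167242696 to 167264329, minus strand), which lies beside Tlr7, had 1108, 1871 and 916 counts in adult libraries and 0 in all perinatal ones. Tlr8 was at least 344-fold higher in adult cells, a bound against a floor of 3 counts per library, and was called (adjusted p = 1.27e-05, edgeR quasi-likelihood test). Tlr9 (chromosome 9, 106222598 to 106226883, plus strand), the receptor of unmethylated CpG DNA, had 625, 421 and 546 counts in adult libraries and 0 in all perinatal ones. Tlr9 was at least 145-fold higher in adult cells (adjusted p = 2.10e-05, edgeR quasi-likelihood test). The adult libraries differed among themselves in opposite ways for these genes, since adult 2 was the highest for Tlr7 and Tlr8, at 140.3 and 97.6 CPM, and the lowest for Tlr9, at 22.0 CPM. Adult 1 and 3 were at 100.03 and 105 CPM for Tlr7, at 59.1 and 63.3 CPM for Tlr8 and at 33.4 and 37.7 CPM for Tlr9.

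Tlr3 (chromosome 8, 45395665 to 45411080, minus strand), which recognises double-stranded RNA and uses the adaptor Ticam1, was the endosomal receptor that kept a low level in perinatal cells. It was at 11.4, 15.1 and 11.3 CPM in adult libraries, against 2.66, 2.26 and 2.16 CPM in perinatal ones, without overlap. Its log2 fold change was 2.42 (SE 0.22, adjusted p = 3.52e-05, edgeR quasi-likelihood test). Of the other Toll-like receptor genes, Tlr13, a mouse receptor of bacterial ribosomal RNA, was at 214 ± 22.1 CPM in adult cells, against 0.103 ± 0.178 CPM in perinatal cells, and the flagellin receptor gene Tlr5 was at 4.51 ± 0.994 CPM and 0.461 ± 0.270 CPM (SD, 3 libraries each). Both were called higher in adult cells (adjusted p = 2.06e-06 for Tlr13 and 3.43e-04 for Tlr5, edgeR quasi-likelihood test). They passed the low-count filter through the adult libraries alone, so they could only be called higher. Tlr12 had at most 4 counts in a library and was not tested.

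Myd88 (chromosome 9, 119335934 to 119341411, minus strand) went the other way. It was at 56.5, 51.5 and 50.8 CPM in adult libraries, against 119, 177 and 189.7 CPM in perinatal ones. The groups did not overlap, and perinatal 1 was again the closest to the adult libraries. The log2 fold change was -1.61 (SE 0.19, adjusted p = 1.47e-04, edgeR quasi-likelihood test), and -1.15 (adjusted p = 4.24e-04) against perinatal 1 alone. Acaa1a, which encodes a peroxisomal thiolase, lies on the opposite strand and shares 290 of the 2576 exon bases of Myd88 in GENCODE M21. Without a stated strand setting, reads from the shared stretch cannot be told apart. Acaa1a was at 93.8 to 108 CPM in adult and 153 to 158 CPM in perinatal libraries (log2 fold change -0.60, adjusted p = 0.00174, edgeR quasi-likelihood test).

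On the authors' TPM scale the order of the 10 genes differed between the groups. Cd14 was the highest in all 3 adult libraries, at 337 to 352 TPM, followed by Tlr2, Tlr7 and Tlr8 in an order that varied between libraries, and then by Myd88 at 45.1 to 51.2 TPM and Tlr4 at 25.6 to 40.0 TPM. Tlr9, Tlr6 and Tlr3 were the 3 lowest in each adult library, all below 18 TPM. Perinatal libraries kept 1 order, with Myd88 first at 71.6 to 136 TPM, then Tlr2 at 22.2 to 29.9 TPM, Cd14 at 4.65 to 6.54 TPM, Tlr4 at 1.88 to 2.49 TPM, Tlr6, Tlr3 and Tlr1.

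The other genes of the pathway are given by list, to be read beside the 37.4% of all genes called higher and 39.7% called lower. Of 9 tested co-receptor and chaperone genes, 5 were called higher in adult cells and 1 lower (median log2 fold change 2.37). Unc93b1, which carries the nucleic acid receptors to endosomes, was at 443 ± 32.7 CPM in adult cells, against 24.6 ± 11.1 CPM in perinatal cells (SD, 3 libraries each), and Nrros, a leucine-rich repeat protein of myeloid cells, at 214 ± 23.8 CPM and 2.15 ± 0.463 CPM. Cd180, the gene of a Toll-like receptor homologue, was at 91.5 ± 3.84 CPM in adult cells and at 0 in all perinatal libraries, and its partner gene Ly86 was at 71.7 ± 9.36 CPM and 3.802 ± 2.21 CPM. Of 19 adaptor and kinase genes, 13 were called higher and 2 lower (median 1.59). Ticam2, the bridging adaptor of Tlr4, was at 24.0 ± 1.14 CPM in adult cells, against 0.555 ± 0.155 CPM in perinatal cells, and the kinase gene Ikbke at 70.6 ± 3.51 CPM and 7.997 ± 1.09 CPM. Both lower ones were Ube2n and Peli1, ubiquitin enzymes that act after Irak kinases. Of 10 NF-kappaB and IRF genes 7 were called higher and 1 lower (median 0.61), with Irf5 at 84.7 ± 9.62 CPM and Irf8 at 183 ± 6.10 CPM in adult cells, against 4.29 ± 0.787 and 10.7 ± 6.17 CPM in perinatal cells. Irf1 was the lower one, at 51.7 ± 4.39 CPM in adult cells, against 479 ± 37.4 CPM in perinatal cells. Of 9 other innate sensor genes 7 were called higher and 1, Sting1, lower (median 2.43), with the inflammasome gene Nlrp3 at 74.9 ± 2.86 CPM in adult cells, against 0.0209 ± 0.0362 CPM in perinatal cells. Of these sensors, Nlrp3, Clec7a, Nod2 and Aim2 were at most 0.462 CPM in a perinatal library. Of the genes above, Cd180 was at 0 there and Ticam2 at most 0.689 CPM. All of these passed the low-count filter through the adult libraries, so they could only be called higher.

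Genes that Toll-like receptor signalling is known to induce were mostly lower in the adult libraries. Of 14 tested target genes, 11 were called lower and 1, Tnf, higher (median -3.36). Cxcl1, the gene of a neutrophil chemokine, was at 0.142 ± 0.163 CPM in adult cells, against 769 ± 352 CPM in perinatal cells, Il6 at 0.141 ± 0.134 CPM and 90.3 ± 26.8 CPM, and the adhesion molecule gene Icam1 at 56.9 ± 3.04 CPM and 436 ± 133 CPM (SD, 3 libraries each). Tnf was at 10.2 ± 0.728 CPM in adult cells, against 0.667 ± 0.393 CPM in perinatal cells. Of 11 inhibitors 4 were called higher and 5 lower (median -0.10), near the shares over all genes. Nfkbia, which encodes the inhibitor of NF-kappaB and is itself induced by it, fell to 61.9 ± 3.19 CPM in adult cells, against 2395 ± 260 CPM in perinatal cells, and Socs1, Nfkbiz, Atf3 and Tnfaip3 were the other 4 lower genes. In the interleukin-1 receptor family, which shares Myd88, 2 genes were called higher and 2 lower of 6 (median -0.30), also near those shares, and Il1r1 fell to 2.10 ± 0.242 CPM in adult cells, against 26.8 ± 8.81 CPM in perinatal cells. Of the called genes of this family, Il18rap passed the low-count filter through the adult libraries alone and Il1r2 through the perinatal ones alone.

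**Figure D3:**
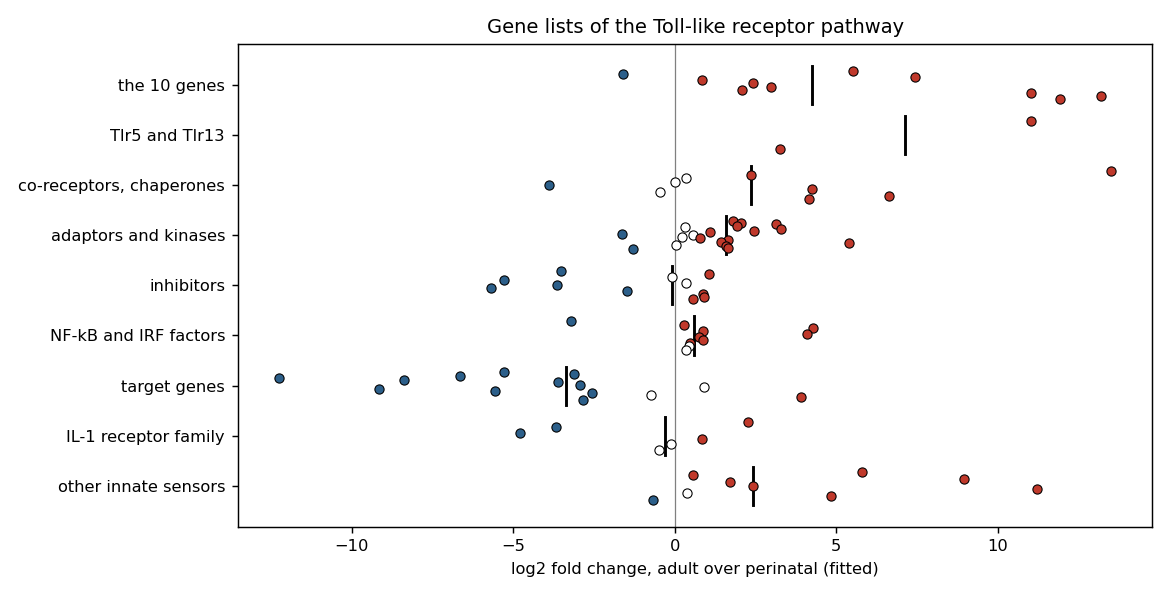
Fitted log2 fold changes of adult over perinatal cells for each tested gene of the 10 described genes and 8 pathway lists, with genes called higher in red, called lower in blue and not called in white, and the median of each list as a bar. Receptors, co-receptors, adaptors and other sensors lie mostly right of 0 and target genes left of it (median -3.36). The fitted values of Tlr8, Tlr9 and Cd180, at 0 in perinatal cells, are not bounds.

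The Sca1 comparison sets 2 libraries labelled Sca1-negative against 2 labelled Sca1-positive to see what the marker separates among young PDGFRa+ cells, and Ly6a goes against these labels, as given above. None of the 6 listed members passed the test, where 4.41% of 13529 genes were called, 1.63% higher and 2.79% lower. At an unadjusted p under 0.05 edgeR gave 2 of the 6, Tlr2 and Tlr4, both higher, where 18.9% of all genes passed that level, and DESeq2 called 0 members. The median log2 fold change of the members was 0.39 and that of all genes tested 0.01. Tlr4 was at 11.4 and 10.3 CPM in the libraries labelled Sca1-negative, against 5.02 and 5.47 CPM in those labelled Sca1-positive. These pairs did not overlap, at a log2 fold change of 1.05 (SE 0.24, adjusted p = 0.0648, edgeR quasi-likelihood test). With replicate number added to that test as a block, Tlr4 was called (adjusted p = 0.0308, edgeR quasi-likelihood test). For Tlr4 the adjusted p was 0.0104 without labelled-negative replicate 2 and 0.00163 without replicate 3, but 0.505 and 0.364 without labelled-positive replicate 2 and 3, with a lone library assumed to vary like the others. Tlr2 was at 94.9 and 74.1 CPM, against 50.7 and 59.6 CPM, also without overlap (log2 fold change 0.62, SE 0.21, adjusted p = 0.173, edgeR quasi-likelihood test). Tlr3 and Tlr6, given below, did not overlap either, and the share of all genes without overlap was not computed. Without labelled-negative replicate 2 or 3 the adjusted p of Tlr2 was 0.0663 or 4.83e-04, and without labelled-positive replicate 2 or 3 it was 0.932 or 0.650.

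Tlr6 pointed the other way, at 0.608 and 1.51 CPM in the libraries labelled Sca1-negative, against 2.14 and 2.63 CPM in those labelled Sca1-positive (log2 fold change -1.17, SE 0.53, adjusted p = 0.300, edgeR quasi-likelihood test). The adjusted p of Tlr6 was 0.0160 without labelled-negative replicate 3, and 0.415, 0.709 and 0.989 without labelled-negative 2, labelled-positive 2 and labelled-positive 3. It rested on 9 and 21 counts, against 38 and 38. Tlr3 was at 2.50 and 3.74 CPM, against 2.03 and 1.94 CPM, with a log2 fold change of 0.65 (SE 0.37). Cd14 was at 4.05 and 9.34 CPM, against 4.96 and 6.997 CPM, so both labelled-positive libraries lay between the labelled-negative ones. Myd88 was at 156 and 187 CPM, against 159 and 171 CPM, a log2 difference of 0.06 with an SE of 0.19. For Cd14 and Myd88 the difference between groups was smaller than the spread between replicates. Macrophage markers, of which 6 of 10 are listed here, summed to 30.7 to 36.5 CPM in the labelled-negative libraries, against 40.1 to 41.4 CPM in those labelled Sca1-positive. Cartilage genes summed to 289.8 and 372 CPM in the labelled-negative libraries, against 4706 and 5944 CPM, and osteoblast genes to 53.7 and 36.6 CPM, against 1293 and 1149 CPM. All 4 genes of each list were called lower, and their part in the values above was not tested.

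The other pathway genes are to be read beside the 4.41% of all genes called by edgeR and the 18.9% at an unadjusted p under 0.05. The latter were 1170 genes higher and 1393 lower of 13529, and the totals of DESeq2 over all genes are given in the closing section. Among them, 3 of 13 tested targets rose in the labelled-negative libraries and 0 fell, while 6 were higher and 1 lower at an unadjusted p under 0.05, and DESeq2 called 3 higher and 1 lower. The 3 targets called by edgeR were Cxcl2 at 47.0 ± 5.27 against 18.3 ± 0.723 CPM, Cxcl1 at 1259 ± 68.0 against 509 ± 9.63 CPM and Il6 at 145 ± 0.809 against 67.7 ± 7.65 CPM (SD, 2 libraries each), with adjusted p of 0.0136, 0.0156 and 0.0270 by the edgeR quasi-likelihood test. Lbp rose to 117 ± 20.6 CPM, against 30.4 ± 5.87 CPM, as the 1 called gene of 8 co-receptors and chaperones. The inhibitor gene Irak3, a kinase-dead relative of the Irak kinases, rose to 37.8 ± 11.5 CPM, against 14.02 ± 0.457 CPM, and Atf3 rose with it, for 2 of 11 inhibitors. Il1r1 was called higher as well, at 40.7 ± 7.61 CPM against 19.5 ± 1.08 CPM. Among 18 adaptors and kinases, 10 NF-kappaB and IRF factors and 5 other sensors edgeR called 0. At an unadjusted p under 0.05 it gave 2 adaptors higher and 1 sensor lower, and DESeq2 called 1 sensor lower.

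**Figure D4:**
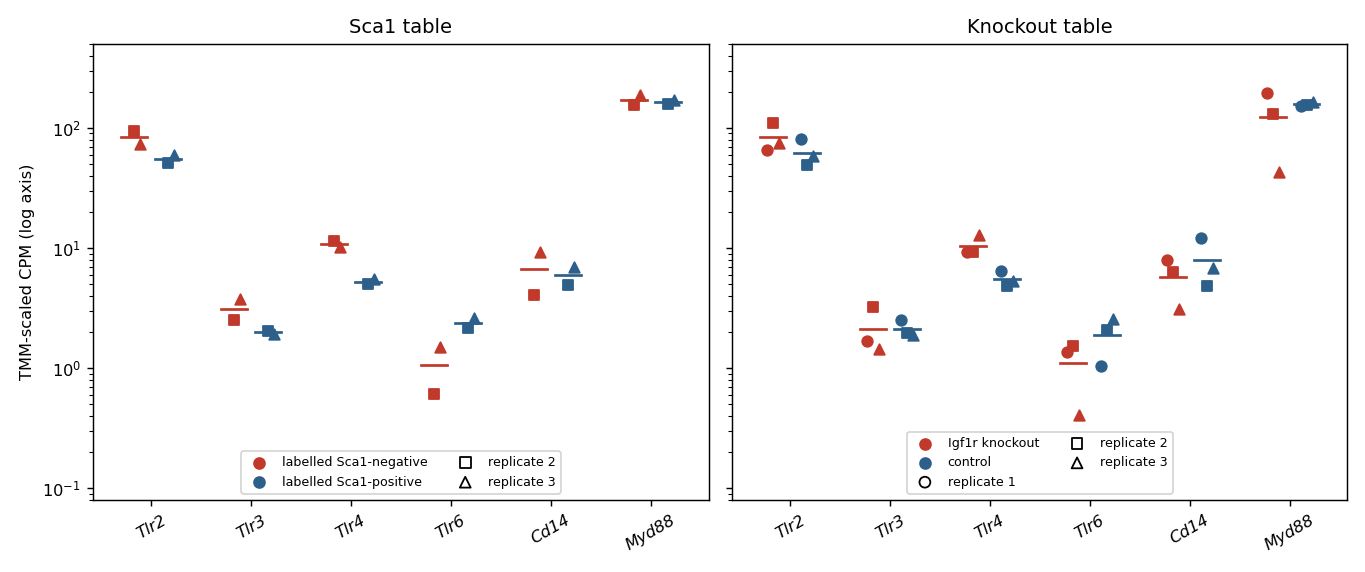
TMM-scaled CPM (log axis) of the 6 genes listed in the Sca1 table (left, 2 libraries a group) and in the knockout table (right, 3 a group), with replicates by symbol and group means as lines. In the knockout table Tlr4 is at 9.27 to 12.7 CPM in knockouts, against 4.86 to 6.50 CPM in controls, and Myd88 spreads from 43.2 to 194 CPM among the knockouts. Labelled Sca1-positive 2 and 3 on the left are the same libraries as controls 2 and 3 on the right.

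Igf1r knockouts were compared with controls to ask what changes with loss of the receptor. None of the 6 listed members passed the test, where 0% of 13590 genes were called higher and 0.0368% lower. At an unadjusted p under 0.05 edgeR gave 1 of the 6, Tlr4, where 21.8% of all genes passed that level, and DESeq2 called 0 members, although it called 474 genes higher and 493 lower over the table. The median log2 fold change was -0.18 for the members and -0.03 for all genes tested. Tlr4 was at 9.27, 9.35 and 12.7 CPM in knockouts 1, 2 and 3, against 6.50, 4.86 and 5.31 CPM in controls 1, 2 and 3. All knockouts lay above all controls, a separation that was not counted over all genes, and control 1, the control rich in Ly6a, was the nearest. The log2 fold change was 0.91 (SE 0.28, adjusted p = 0.179, edgeR quasi-likelihood test), and among the alternatives run it passed without knockout replicate 1 (0.99, adjusted p = 0.0475) and had an adjusted p of 0.149 to 0.456 without any other single library. Against control 1 alone it was 0.68 (SE 0.49, adjusted p = 0.594).

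Myd88 was at 194, 131 and 43.2 CPM in knockouts, against 152, 154 and 166 CPM in controls. The controls lay within a narrow range, while knockout 1 was above and knockouts 2 and 3 below all of them (log2 fold change -0.36, SE 0.47, adjusted p = 0.634, edgeR quasi-likelihood test). Acaa1a on the opposite strand was at 153, 87.6 and 96.6 CPM in knockouts, against 220.1, 133 and 134 CPM in controls. Tlr2 was at 65.3, 109.95 and 74.5 CPM, against 80.1, 49.1 and 57.9 CPM, and the groups overlapped (log2 fold change 0.42, SE 0.29). Its difference against control 1 alone was 0.05 (SE 0.47). Cd14 was at 7.98, 6.27 and 3.12 CPM in knockouts, against 12.1, 4.81 and 6.79 CPM in controls, where control 1 was the highest of the 6 libraries (log2 fold change -0.45, SE 0.46). Tlr3 was at 1.67, 3.24 and 1.45 CPM, against 2.49, 1.97 and 1.88 CPM, and Tlr6 at 1.37, 1.54 and 0.408 CPM, against 1.04, 2.08 and 2.56 CPM, both with overlap. Knockout 3 was thus the lowest library for Myd88, Cd14, Tlr3 and Tlr6 and the highest for Tlr4.

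In the knockout comparison 0 of 74 tested pathway genes passed the edgeR quasi-likelihood test. At an unadjusted p under 0.05 it gave 17 higher and 6 lower, beside the 21.8% of all genes (1647 higher and 1316 lower of 13590). DESeq2 called 10 higher and 0 lower, of which 4 were targets and 3 of the interleukin-1 receptor family. Of the 2 most abundant genes of a list, shown here for 3 lists, the target gene Cxcl1 was at 1362 ± 247 CPM in knockouts and 804 ± 537 CPM in controls, and the inhibitor genes Nfkbia and Atf3 were at 2324 ± 566 and 1043 ± 44.2 CPM in knockouts and 2471 ± 886 and 741 ± 339 CPM in controls. The other target gene, the chemokine gene Ccl2, was at 2429.7 ± 1504 CPM in knockouts and 329 ± 123 CPM in controls, and in the interleukin-1 receptor family Il1r1 was at 53.2 ± 7.98 CPM and 23.0 ± 6.99 CPM, and Il1rl1, the interleukin-33 receptor gene, at 17.7 ± 2.13 CPM and 4.42 ± 1.12 CPM (SD, 3 libraries each). The adjusted p by that edgeR test was 0.311 for Cxcl1, 0.874 for Nfkbia, 0.362 for Atf3, 0.176 for Ccl2 and for Il1r1 and 0.0874 for Il1rl1. These lists had median log2 fold changes of 0.38 (targets), 0.13 (inhibitors) and 1.21 (interleukin-1 receptor family). The NF-kappaB and IRF factors had a median of -0.58, with 0 higher and 2 lower at an unadjusted p under 0.05. Of these, Irf1 was at 420 ± 101 CPM in knockouts and 449 ± 44.0 CPM in controls, and Rela at 68.5 ± 36.1 and 103 ± 21.6 CPM. Macrophage markers, of which 9 of 10 are listed here, summed to 21.9 to 30.9 CPM in knockouts and 30.1 to 40.7 CPM in controls, and Adgre1, the gene of F4/80, had at most 9 counts in a library. Cartilage genes summed to 368, 225 and 222 CPM in knockouts, against 433 CPM in control 1 and 4560 and 5771 CPM in controls 2 and 3, and their part in the values above was not tested.

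**Figure D5:**
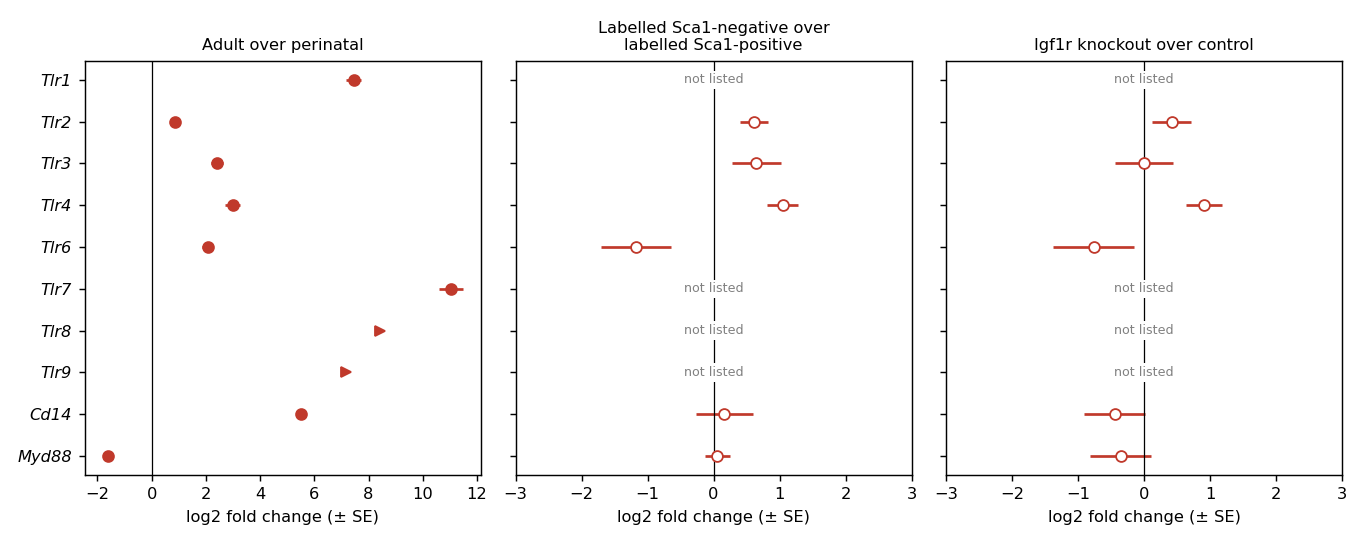
Log2 fold changes with SE bars in the 3 comparisons (adult over perinatal, labelled Sca1-negative over labelled Sca1-positive, knockout over control; the left axis is wider), where filled symbols passed the edgeR test at an adjusted p under 0.05, open symbols did not, and triangles are lower bounds. In the age comparison 9 genes lie right of 0 and Myd88 left of it, and in the other 2 comparisons, which share 2 libraries, no symbol is filled.

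The knockout and Sca1 comparisons share the libraries called control 2 and 3 in one and labelled Sca1-positive 2 and 3 in the other. The log2 fold changes of Tlr4 were 0.91 and 1.05, of Tlr2 0.42 and 0.62, of Tlr6 -0.77 and -1.17, of Tlr3 -0.00 and 0.65, of Cd14 -0.45 and 0.16 and of Myd88 -0.36 and 0.06, with the knockout value first each time. In both comparisons the first group was the one richer in Ly6a.

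The genes most like each member across the 6 libraries of the knockout table were found by Pearson correlation of log2 CPM over 13589 other genes, as a description. Tlr4 was most like Plcl1 (r = 0.996), Usp25 (0.994) and Panx1 (0.993). Myd88 was most like Scmh1 (r = 0.998), Pdcd2l (0.997) and Zfp956 (0.995), and Cd14 like Tspan17 (0.998), Acacb (0.997) and Cnrip1 (0.996). Tlr2 was most like Lipa (r = 0.992), the gene of lysosomal acid lipase, Tlr6 like Ccdc125 (0.994) and Tlr3 like Tmem242 (0.964). The 6 points share 2 libraries with the Sca1 comparison, and the best of this many genes was taken for each member.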

How the data were processed

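The authors deposited 3 tables of unnormalized read counts, 1 for each comparison. The submitters' processing notes name Trimmomatic 0.32, build mm10 and DESeq2. For the aligner, counter, annotation and strand setting no source used here gives an entry. TPM values in the age and Sca1 tables are the authors' own, per the file headers, and were used to compare levels between genes. The columns headed TPM in the knockout table, deposited on a log2 scale with values below 0, were not used, nor were the deposited log2 fold changes and adjusted p-values. Total counts per library were 13412316 to 23782217, and a floor of 3 counts was 0.126 to 0.224 CPM of the unscaled total.

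Each table was analysed by itself. Counts were filtered with filterByExpr, scaled with TMM factors and tested by the quasi-likelihood functions glmQLFit (robust) and glmQLFTest of edgeR 4.0.16, run in R 4.3.3 with group as the only term, and checked on simulated data. P-values were adjusted by Benjamini-Hochberg across every tested gene of a table, and genes were called under 0.05. The SE is the log2 fold change divided by the square root of F. CPM use TMM-scaled totals. DESeq2 1.42.0 was an alternative. Gene coordinates are from GENCODE M21 on GRCm38, the assembly named mm10. Whether the samples are separate animals is not stated, so the p-values reflect only how far these samples spread, which may be technical. Intervals and floors cover counting error only.

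The 10 genes and the pathway and marker lists were chosen with earlier results of these data known. The text names all 10 members, Igf1r, Ly6a, Pdgfra and Itgav as label checks, and from each list and comparison mainly the called genes with the smallest adjusted p (at most 4) or the 2 most abundant where none was called. Ly96, Lbp, Ube2n, Peli1, Tnf, Csf3, Lcn2, Ccl5, Nfkbiz, Socs1, Atf3, Tnfaip3, Nod2, Sting1, Tlr12 and Acaa1a were named outside this rule in at least 1 comparison, after their values were seen.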

Additional observations from a re-analysis of the deposited data

How the results depend on the processing

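In the age comparison 9 members were called higher and 1 lower under all alternatives but 1. That exception, leaving out genes at 0 in a whole group, removed Tlr8 and Tlr9 and left 7 higher and 1 lower. Upper quartile factors moved the median of all genes by -0.13 on the log2 scale. Without 1 library at a time, the Sca1 comparison gave 0 to 2 members higher and 0 to 1 lower, and the knockout comparison 0 to 1 higher. Over all genes, the Sca1 comparison called 220 higher and 377 lower, against 428 and 598 with DESeq2, and 143 to 2268 higher and 317 to 2567 lower without 1 library. The knockout comparison called 0 higher and 5 lower, against 474 and 493 with DESeq2, 1 higher with the stricter filter, 0 lower against control 1 alone, and 0 to 1532 higher and 0 to 1471 lower without 1 library. The cause of these shifts was not tested. The log2 fold change changed sign without 1 library for Cd14 (-0.55 to 0.65) and Myd88 (-0.070 to 0.18) in the Sca1 comparison, and for Tlr3 (-0.43 to 0.21), Cd14 (-0.75 to 0.000198) and Myd88 (-0.84 to 0.042) in the knockout comparison. In the knockout comparison that of Tlr3 was also 0.00202 without a filter and that of Tlr6 0.083 against control 1 alone. None of these sign changes was called.

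Samples of different groups share replicate numbers, but the labels do not say that a number marks a shared animal or day. Correlations of the deviations of same-numbered samples were -0.019, -0.0171 and 0.185 for age, 0.187, 0.118 and 0.0543 for the knockout and 0.303 for Sca1. Those of different-numbered samples ran from -0.202 to 0.146 for age and from -0.27 to 0.193 for the knockout. For Sca1 they were -0.303, since 2 libraries a group can only mirror the same value. These values cannot settle whether a number pairs samples. The main test assumed no pairing. With a replicate block the Sca1 comparison called 1 member higher (Tlr4, adjusted p = 0.0308) and 577 genes higher and 792 lower, the knockout comparison called 0 genes lower, and the age comparison called 9 members higher and 1 lower. Depth limits Tlr1, Tlr7, Tlr8 and Tlr9 in perinatal cells, where they had 8, 2, 0 and 0 counts over 3 libraries.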
